A study of Mus musculus with 9 samples.

Results

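The oxygen-regulated genes described here are 35 named mouse genes: the HIF transcription factor subunits and their oxygen sensors, the enzymes of glycolysis, and further genes that HIF is known to act on. They were chosen by symbol from the deposited table, where they filled 36 of 53342 rows because Aldoa is listed under a pair of gene IDs. All 36 rows passed the filter on low counts, out of 19640 genes tested. Whole lung of C57BL/6 mice was profiled by poly(A) RNA sequencing in 3 groups of 3 samples. The hypoxia with PTH group (replicates 3, 4 and 5) breathed 10% oxygen for 3 weeks and received parathyroid hormone (PTH), as the peptide of residues 1 to 34, at 40 µg/kg/day. The hypoxia group (replicates 1, 2 and 5) had the same oxygen exposure, and the normoxia group (replicates 2, 3 and 5) is labelled by normal oxygen alone. Sample titles call the hypoxia and normoxia samples WT and name no allele for those with PTH, and age and sex are not stated. The labels mention saline for a sham group without saying which samples received it, and they do not state that samples came from separate animals, so each p-value describes spread from sample to sample, which may be technical. The study asked how PTH acts in pulmonary hypertension brought on by low oxygen.

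HIF is a pair of proteins, an oxygen-labile alpha subunit and the constant partner ARNT. In air, prolyl hydroxylases (the Egln genes) mark the alpha subunit for VHL, which directs its destruction. In low oxygen the alpha subunit persists and binds short DNA elements with the core letters ACGTG or GCGTG near genes for glucose uptake, glycolysis, mitochondrial clearance and blood vessel growth. Hif1a encodes the widely expressed alpha subunit and Epas1 encodes HIF-2 alpha, which is abundant in lung endothelium. Because control is mainly through protein stability, RNA levels of the subunits do not measure HIF activity.

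The core letters were looked for on both strands in RefSeq promoter windows (build GRCm38.p6) running from 250 bases before to 50 bases after each annotated start. Entries were found for 31 of the 35 genes, and Bhlhe40, Bnip3l, Epas1 and Ndrg1 had none. ACGTG or GCGTG lay in 35 of their 45 windows (77.8%), against 43.8% of all 32851 windows. ACGTG itself lay in 55.6% of the members' windows, against 19.6% of all windows. At least 1 window of 28 of the 31 genes held a match, and the windows of Vhl, Tpi1 and Gpi1 held none. A match is only a description of the letters. The genes were picked as part of the HIF pathway, so a higher share than that of all windows is no test of them. Windows of the same gene can overlap, and the shares were not matched for base content. The promoters of 4 genes are printed because all 4 hold the letters while their RNA differed in direction and size. In hypoxia against normoxia Hilpda fell, and Bnip3, Pgk1 and Ldha, none of which passed the test, had log2 fold changes of 0.30, 0.05 and 0.00. For a gene with 2 windows, the one with more matches is given. Capitals mark a match to either core on either strand. The palindrome that holds the first core on both strands counts as 2 matches, and neighbouring matches may share letters.
Hilpda, chr6:29272376-29272675, plus strand: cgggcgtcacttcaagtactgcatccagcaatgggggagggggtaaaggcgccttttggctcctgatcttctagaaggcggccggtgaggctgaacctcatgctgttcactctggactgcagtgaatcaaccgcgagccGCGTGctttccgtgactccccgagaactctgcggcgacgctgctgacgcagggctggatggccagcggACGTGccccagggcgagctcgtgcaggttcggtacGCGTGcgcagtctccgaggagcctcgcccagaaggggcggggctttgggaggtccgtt
Bnip3, chr7:138909457-138909756, minus strand: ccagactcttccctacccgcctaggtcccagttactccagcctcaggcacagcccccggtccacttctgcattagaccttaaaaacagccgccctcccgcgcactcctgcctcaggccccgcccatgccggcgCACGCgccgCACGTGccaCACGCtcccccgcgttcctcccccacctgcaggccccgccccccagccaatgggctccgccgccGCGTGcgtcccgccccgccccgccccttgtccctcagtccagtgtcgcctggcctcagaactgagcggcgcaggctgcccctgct
Pgk1, chrX:106186850-106187149, plus strand: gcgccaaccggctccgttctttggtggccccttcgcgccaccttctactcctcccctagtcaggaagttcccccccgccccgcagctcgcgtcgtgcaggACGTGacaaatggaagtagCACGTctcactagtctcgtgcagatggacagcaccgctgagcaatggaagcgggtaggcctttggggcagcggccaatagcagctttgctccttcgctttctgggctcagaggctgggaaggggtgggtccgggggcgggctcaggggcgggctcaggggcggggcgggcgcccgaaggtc
Ldha, chr7:46845554-46845853, plus strand: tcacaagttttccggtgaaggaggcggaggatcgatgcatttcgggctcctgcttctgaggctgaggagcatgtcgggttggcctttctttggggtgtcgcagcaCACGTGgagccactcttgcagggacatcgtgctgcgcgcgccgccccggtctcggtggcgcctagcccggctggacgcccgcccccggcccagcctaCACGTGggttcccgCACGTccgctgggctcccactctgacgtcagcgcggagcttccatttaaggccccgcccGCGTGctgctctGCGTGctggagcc
The Hilpda window held 1 ACGTG and 2 GCGTG, the Bnip3 window 2 and 3, the Pgk1 window 2 and 0, and the Ldha window 5 and 2.

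The libraries held 40234030 to 58391086 counts. Levels below are CPM, the counts relative to library size after TMM scaling. Libraries differed within groups in clock phase and in heart muscle and fat. Dbp, an output gene of the circadian clock, was at 6.13 to 16.5 CPM in all 3 hypoxia with PTH libraries, hypoxia replicate 5 and normoxia replicate 5, and at 160 to 316 CPM in the other 4. Cardiac muscle markers (9 genes) summed to 53.3 to 516 CPM in hypoxia with PTH, 440 to 1658 CPM in hypoxia and 272 to 903 CPM in normoxia. Lung markers were abundant in every library, with the surfactant gene Sftpc at 10450 CPM or more.

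In length-scaled units (TPM), the members spanned a wide range of levels in lung. Epas1 was the most abundant, at a mean of 1659 TPM over the 9 libraries, against 34.2 TPM for Hif1a and 10.9 TPM for Hif3a, which encodes a related subunit with splice forms that can inhibit HIF. Aldoa, the glycolytic aldolase, followed at 463 TPM and Ddit4, a stress-induced inhibitor of mTORC1, at 445 TPM. Hexokinase 1 (Hk1, 27.9 TPM) was above the inducible Hk2 (15.6 TPM). Car9, the cell-surface carbonic anhydrase that is a standard marker of hypoxic cells, lay near the 1 TPM floor of the deposited values and was at that floor in 3 libraries. Egln3 was the lowest of the members above the floor in all libraries, with 3.15 TPM.

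**Figure D1:**
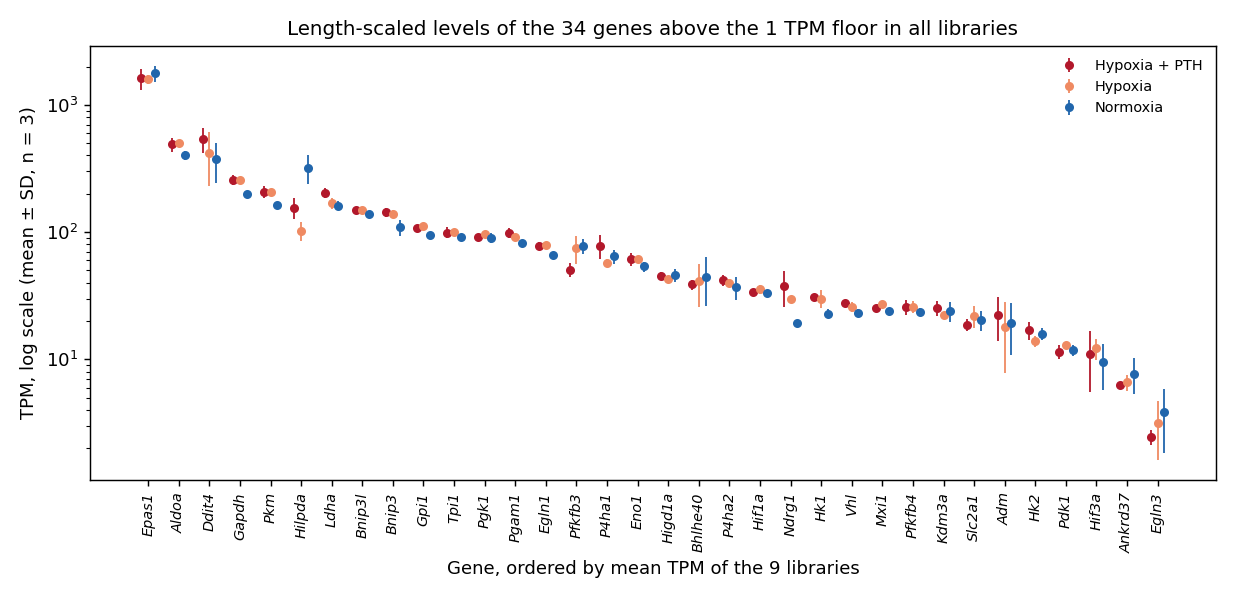
Levels of the 34 genes above the floor of 1 TPM in all 9 libraries, as mean ± SD of 3 libraries per group on a log axis (TPM), ordered by the mean of all libraries. Epas1 stands at the left end (1659 TPM) and Egln3 at the right (3.15 TPM), and Hilpda is the gene whose normoxia point (319 TPM) stands farthest above the points of hypoxia with PTH (156 TPM) and hypoxia (102 TPM).

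After 3 weeks at 10% oxygen, 1 of the 36 rows passed the test against normoxia. Hilpda, which encodes a small lipid-droplet protein that inhibits the triglyceride lipase ATGL, fell. No member rose. Estimated differences of the other 35 rows were 0.57 log2 units at most. In all, 34 of 36 rows lay within 0.5 log2 units of normoxia in either direction. For some rows, such as Egln3 and Hif3a, the 95% interval reached beyond that. A call is a Benjamini-Hochberg adjusted p under 0.05 in edgeR's quasi-likelihood test over all 19640 genes, of which 0.412% were called higher and 0.158% lower in hypoxia. At an unadjusted p under 0.05 there were 9 rows, 8 of them positive, against 11.8% of all genes in either direction. The groups did not overlap for 10 rows, 9 higher and 1 lower in hypoxia, against 17.1% of all genes (8.56% higher and 8.57% lower). The median log2 fold change of the 36 rows was 0.07, beside -0.00153 over all genes tested, and 24 of the 36 were positive. Without normoxia replicate 2 the members' median was 0.03.

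Hilpda (mm10 chr6:29272488-29275446, plus strand, whole gene) was measured at 47.1, 62.9 and 71.75 CPM in hypoxia with PTH replicates 3, 4 and 5. In hypoxia replicates 1, 2 and 5 it was at 37.4, 35.6 and 48.05 CPM, and in normoxia replicates 2, 3 and 5 at 96.8, 133 and 163 CPM. The lowest normoxia library was above every library of both hypoxic groups, while PTH replicate 3 lay just below hypoxia replicate 5. Against normoxia, the log2 fold change was -1.70 in hypoxia (SE 0.22, edgeR adjusted p = 0.00863). This call was made in 18 of 21 alternative settings, and the fold change stayed between -1.88 and -1.51. Apart from the fit with the replicate number as a block, it was not made without hypoxia replicate 1 (adjusted p = 0.0554) or in limma on the deposited log2 TPM (0.0968). In whole lung, fewer cells of a type that holds the transcript and less transcript per cell cannot be told apart. Adipocyte markers (7 genes), from cells rich in lipid droplets, summed to 16.1 to 43.8 CPM in hypoxia with PTH, 12.1 to 194 CPM in hypoxia and 19.2 to 143 CPM in normoxia and overlapped. With a score of muscle and fat markers in the fit, Hilpda was called at -1.58 (edgeR adjusted p = 0.0201). That score pools 9 cardiac and 5 adipocyte genes, so the part of fat content alone was not tested.

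**Figure D2:**
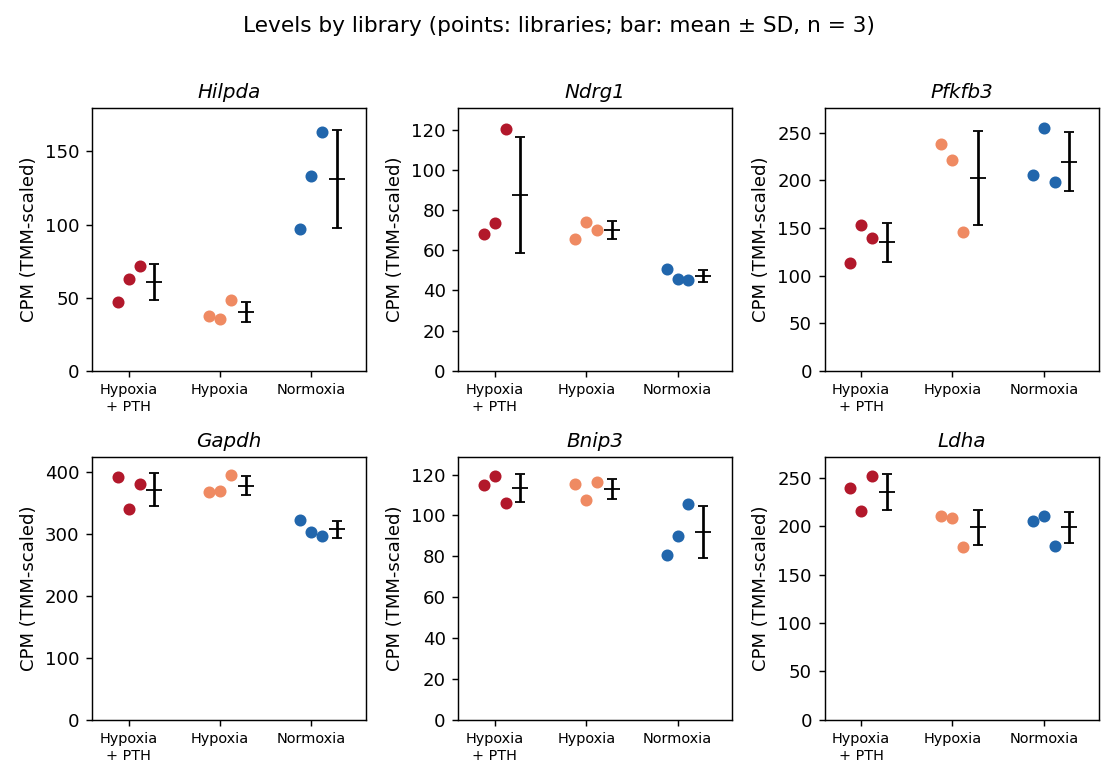
Levels of 6 members in each library in CPM scaled by TMM, with the mean and SD of the 3 libraries of each group as a bar. Hilpda is at 96.8 CPM or above in normoxia and at 71.75 CPM or below in both hypoxic groups, while Ndrg1 and Gapdh are lowest in normoxia and Pfkfb3 is lowest in hypoxia with PTH.

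Of the HIF subunits and their regulators, 0 of 6 were called between hypoxia and normoxia. Hif1a was measured at 67.7, 69.0 and 73.8 CPM in hypoxia with PTH, 77.05, 79.6 and 68.1 CPM in hypoxia and 70.1, 77.3 and 70.7 CPM in normoxia. Epas1 had 2336, 3556 and 3199 CPM in hypoxia with PTH, 3089, 2786 and 3147 CPM in hypoxia and 2947, 3617 and 3938 CPM in normoxia. Vhl, the substrate receptor of the ubiquitin ligase, had 27.35, 31.5 and 29.2 CPM in hypoxia with PTH, 28.6, 25.6 and 28.8 CPM in hypoxia and 23.8, 27.2 and 26.6 CPM in normoxia. All 3 genes overlapped between hypoxia and normoxia, with log2 fold changes of 0.04, -0.22 and 0.10 and 95% intervals of -0.13 to 0.22, -0.58 to 0.14 and -0.11 to 0.30. Egln1, the main prolyl hydroxylase and itself a HIF target, was the member of this class farthest from normoxia relative to its spread. It was at 104, 95.3 and 96.5 CPM in hypoxia with PTH, 103, 99.6 and 101.5 CPM in hypoxia and 84.2, 92.3 and 89.7 CPM in normoxia. Every hypoxic library lay above every normoxia library, but the log2 fold change of 0.19 in hypoxia (SE 0.07, unadjusted p = 0.0167) did not pass (edgeR adjusted p = 0.266). Egln3, a hydroxylase gene induced by HIF in many cells, varied widely, between 1.68 and 6.12 CPM over all libraries. Its log2 fold change in hypoxia against normoxia was -0.33, with a 95% interval of -1.26 to 0.61. For Hif3a it was 0.32, with an interval of -0.66 to 1.29. Larger differences in these genes are therefore not excluded.

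Glycolysis members had mostly small positive values in hypoxia against normoxia, and none passed the test. Of 14 rows for glucose entry and glycolysis, 12 had positive log2 fold changes in hypoxia and 2 negative ones, with a median of 0.11 and a range of -0.25 to 0.34, and 0 were called. The 12 include the second Aldoa row, at most 1.14 CPM in any library, whose value was 0.13 (SE 0.58). Of all genes tested, 49.7% were positive. Gapdh, whose enzyme oxidises glyceraldehyde phosphate, had 392, 341 and 380.4 CPM in hypoxia with PTH, 368, 370 and 395 CPM in hypoxia and 323, 303 and 296 CPM in normoxia. Every hypoxic library was above every normoxia library. The log2 fold change was 0.30 in hypoxia (SE 0.08, edgeR adjusted p = 0.144), and DESeq2 called it (adjusted p = 0.0288). Pkm, the pyruvate kinase of most tissues, had 399, 342 and 355 CPM in hypoxia with PTH, 368, 368 and 363 CPM in hypoxia and 312, 316 and 290.4 CPM in normoxia. Its groups were also separate, with a log2 fold change of 0.26 in hypoxia (SE 0.08, edgeR adjusted p = 0.202). Reads of Gapdh may include those of Iffo1, which overlaps it on the opposite strand and holds 13.5% as many counts, since the use of strand in counting is not given in the sources used here.

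Hk1, the constitutive hexokinase, was at 90.7, 95.7 and 90.8 CPM in hypoxia with PTH, 92.4, 77.2 and 105 CPM in hypoxia and 69.2, 69.85 and 78.9 CPM in normoxia. Normoxia replicate 5 lay above hypoxia replicate 2, so these groups overlapped. Aldoa was at 554, 459.9 and 483 CPM in hypoxia with PTH, 519.7, 525.5 and 508 CPM in hypoxia and 459.5, 457 and 395 CPM in normoxia. Gpi1, the isomerase of glucose 6-phosphate, was at 242, 257 and 233 CPM in hypoxia with PTH, 252.5, 259.5 and 257 CPM in hypoxia and 229.5, 223 and 225 CPM in normoxia. For both of these genes all hypoxic libraries were above all normoxia libraries, PTH replicate 4 of Aldoa by the smallest margin. In hypoxia against normoxia the log2 fold changes were 0.34 for Hk1 (SE 0.11), 0.24 for Aldoa (SE 0.09) and 0.18 for Gpi1 (SE 0.07), with edgeR adjusted p of 0.227, 0.327 and 0.297. Pgam1, the phosphoglycerate mutase of most tissues, had 65.6, 57.0 and 67.65 CPM in hypoxia with PTH, 61.1, 58.4 and 59.4 CPM in hypoxia and 56.3, 57.4 and 55.1 CPM in normoxia. Hypoxia libraries were above normoxia libraries by a small margin, and PTH replicate 4 lay inside the normoxia range. Rows named as Pgam1 pseudogenes held 14.85% as many counts as Pgam1, so its reads may be split. The other glycolysis members were not called in any comparison: in hypoxia against normoxia, the inducible hexokinase Hk2 was at -0.25 log2 units, the enolase Eno1 at 0.14, triosephosphate isomerase Tpi1 at 0.09 and Pfkfb4, a relative of Pfkfb3, at 0.08. Spsb2, which overlaps Tpi1 on the opposite strand, holds 19.8% as many counts as Tpi1, so reads of Tpi1 may include some of Spsb2. The second Aldoa row (ENSMUSG00000114515), upstream of the first on the same strand, held at most 1.14 CPM and overlaps Fam57b.

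Slc2a1, Ldha and Pgk1, the textbook HIF targets for glucose uptake, lactate production and ATP release in glycolysis, were close to normoxia. Slc2a1, which encodes the glucose transporter GLUT1, had 21.0, 26.01 and 21.8 CPM in hypoxia with PTH, 21.3, 28.6 and 32.55 CPM in hypoxia and 28.1, 21.4 and 30.6 CPM in normoxia. Pgk1 had 73.3, 68.85 and 74.3 CPM in hypoxia with PTH, 78.95, 79.6 and 75.5 CPM in hypoxia and 82.9, 75.2 and 67.9 CPM in normoxia. Ldha, the lactate dehydrogenase subunit of glycolytic tissues, had 239.9, 215.5 and 252 CPM in hypoxia with PTH, 210.5, 208 and 178 CPM in hypoxia and 206, 211 and 180.2 CPM in normoxia. All 3 genes overlapped between hypoxia and normoxia, with log2 fold changes of 0.04, 0.05 and 0.00. Their 95% intervals, -0.35 to 0.44 for Slc2a1, -0.13 to 0.23 for Pgk1 and -0.22 to 0.22 for Ldha, held no change as large as 0.5. Pdk1, which encodes a kinase that inhibits pyruvate dehydrogenase, had a log2 fold change of 0.09.

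Among the mitochondrial members, Bnip3, a receptor for the removal of mitochondria by autophagy, had 115, 119 and 106 CPM in hypoxia with PTH, 115, 107 and 116 CPM in hypoxia and 80.5, 89.9 and 105.5 CPM in normoxia. All hypoxic libraries were above normoxia, by a narrow margin over normoxia replicate 5. Its log2 fold change in hypoxia of 0.30 (SE 0.10) did not pass (edgeR adjusted p = 0.248). Its relative Bnip3l and Higd1a, a regulator of respiratory chain complexes, were at 0.05 and -0.14. Of the hydroxylases that use oxygen on collagen and histones, P4ha1 was at -0.22, P4ha2 at 0.06 and the histone demethylase Kdm3a at -0.15. Mxi1, an antagonist of MYC, was at 0.13 with all hypoxia libraries above normoxia. None of these passed.

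Ankrd37 and Car9, which rise strongly in many hypoxic cells in culture, were low in lung. Ankrd37 had 3.21, 3.28 and 3.67 CPM in hypoxia with PTH, 4.13, 3.52 and 3.29 CPM in hypoxia and 3.23, 5.96 and 4.10 CPM in normoxia. Car9 had 0.922, 0.924 and 0.876 CPM in hypoxia with PTH, 1.16, 0.524 and 0.767 CPM in hypoxia and 0.957, 1.12 and 0.585 CPM in normoxia. Groups overlapped for both, and the log2 fold changes in hypoxia of -0.28 (SE 0.23) and -0.13 (SE 0.36) did not pass. Genes on the opposite strand, Ufsp2 at Ankrd37 and Gm12454 at Car9, held 627% and 225% as many counts, so neither low level can be assigned to its own gene with certainty.

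Ndrg1, a stress-responsive gene whose product acts in vesicle traffic and growth control, was the member with the largest positive value. It was measured at 68.2, 73.5 and 120.5 CPM in hypoxia with PTH, 65.5, 74.1 and 70.15 CPM in hypoxia and 50.5, 45.8 and 44.9 CPM in normoxia (mm10 chr15:66929321-66969640, minus strand, whole gene). Every hypoxic library was above every normoxia library, and PTH replicate 5 stood far above the rest. In hypoxia the log2 fold change was 0.57 (SE 0.19, edgeR adjusted p = 0.239), which did not pass. With only the 6 hypoxia and normoxia libraries it passed (adjusted p = 0.0286), as it did without PTH replicate 5 (adjusted p = 0.0213), a library that enters this comparison only through the shared estimate of spread.

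**Figure D3:**
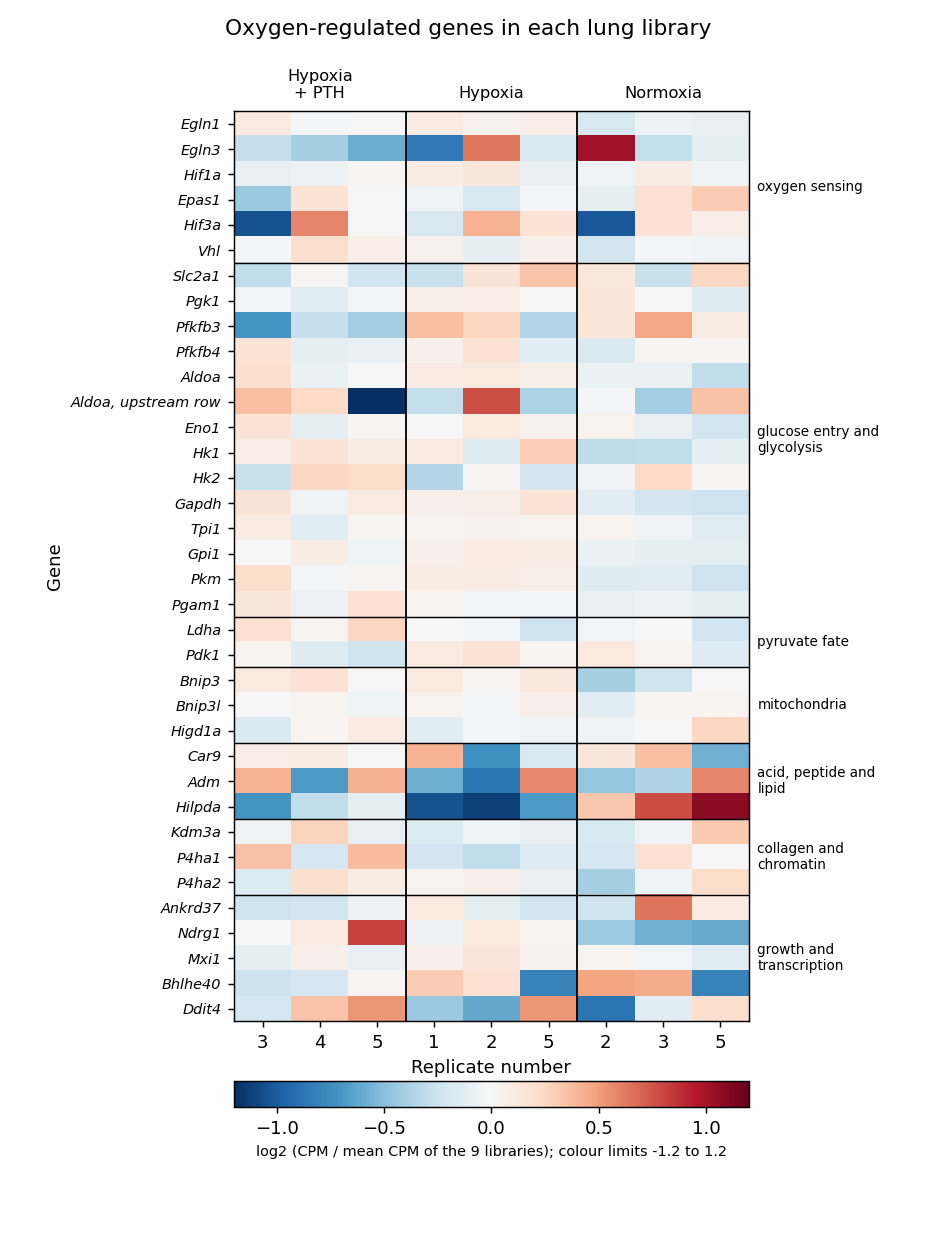
log2 of each library's CPM over the mean of the 9 libraries for all 36 rows, grouped by role, with colour limits at -1.2 and 1.2. Hilpda is above its mean in the 3 normoxia libraries and below it in the 6 others, by the smallest amount in PTH replicate 5. Ndrg1 is low in normoxia, and Bhlhe40 is lowest in the replicates numbered 5 of hypoxia and normoxia.

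Adding PTH to hypoxia changed no member at the threshold. Of all genes 0% were called in either direction in this comparison, so no gene of any kind passed in edgeR, and DESeq2 called 143 genes, with 0 members among them. At an unadjusted p under 0.05 there were 4 members (Hilpda, P4ha1 and Ldha positive, Pfkfb3 negative), against 9.31% of all genes. Groups did not overlap for 2 members, Ldha higher and Pgk1 lower with PTH, against 13.9% of all genes (6.60% higher and 7.29% lower). The median log2 fold change was -0.03 over the members and -0.00995 over all genes. The members ranged from -0.58 to 0.59, and 16 were positive and 20 negative, while 47.7% of all genes were positive. Without hypoxia replicate 1 or 2 the members' median was nearer 0, at -0.00162 and -0.000749.

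Pfkfb3, which makes the allosteric activator of phosphofructokinase, was at 113, 153 and 139 CPM in hypoxia with PTH, 239, 222 and 146 CPM in hypoxia and 205.5, 255 and 198 CPM in normoxia. The PTH libraries were below all normoxia libraries but overlapped hypoxia through hypoxia replicate 5. The log2 fold change with PTH against hypoxia was -0.58 (SE 0.19, unadjusted p = 0.0122, edgeR adjusted p = 0.454). Dbp was low in every PTH library and in hypoxia replicate 5 (13.9 CPM), whose Pfkfb3 level was inside the PTH range, and in normoxia replicate 5 (6.85 CPM), whose Pfkfb3 level was not. With the clock score in the fit, the log2 fold change was -0.23 (edgeR adjusted p = 0.818). Since all PTH libraries were low in Dbp, no comparison within Dbp-high libraries could be made.

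P4ha1, a catalytic subunit of the collagen prolyl hydroxylase, had 126, 85.6 and 127 CPM in hypoxia with PTH, 84.2, 80.4 and 88.8 CPM in hypoxia and 85.65, 112 and 98.1 CPM in normoxia. PTH replicates 3 and 5 were above all other libraries and PTH replicate 4 lay among the hypoxia libraries. With PTH against hypoxia the log2 fold change was 0.42 for P4ha1 (SE 0.15, edgeR adjusted p = 0.472) and 0.25 for Ldha (SE 0.10, adjusted p = 0.498). For Hilpda it was 0.59 (SE 0.21, adjusted p = 0.472), with PTH replicate 3 inside the hypoxia range. With the clock score in the fit, Hilpda was at 0.30 (edgeR adjusted p = 0.818) and Ldha at 0.39 (0.729). With the muscle and fat score, Hilpda was at 0.35 and P4ha1 at 0.27 (adjusted p = 0.999 for both). Pgk1 was lower with PTH in all 3 libraries, by -0.11 log2 units (SE 0.08), a difference smaller than its spread in normoxia.

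Set against normoxia, hypoxia with PTH had 2 members called: Hilpda fell and Ndrg1 rose. Of all genes, 1.27% were called higher and 0.468% lower. At an unadjusted p under 0.05 there were 10 members, 8 of them positive, against 17.2% of all genes. The groups did not overlap for 12 members, 10 higher and 2 lower with PTH. Over all genes the share was 22.8%, with 11.4% higher and 11.4% lower. The median was 0.04, beside -0.0145 over all genes, and was -0.00600 without normoxia replicate 2, 0.09 without normoxia replicate 3 and 0.08 without PTH replicate 5. This comparison and that of hypoxia use the same normoxia libraries, so a member's values in both are not independent.

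For Hilpda the log2 fold change was -1.11 (SE 0.21, edgeR adjusted p = 0.0356), and for Ndrg1 it was 0.89 (SE 0.19, adjusted p = 0.0496). Both calls are close to the threshold, made in 10 and 7 of 21 alternative settings. The Hilpda call ended when normoxia replicate 3 (0.109) or 5 (0.0728) was left out, or hypoxia replicate 1 (0.0569) or 2 (0.0517), or PTH replicate 3 (0.0740), 4 (0.0982) or 5 (0.0731). The Ndrg1 call ended when normoxia replicate 2 (0.121), 3 (0.138) or 5 (0.104), hypoxia replicate 1 (0.0729), 2 (0.0721) or 5 (0.0787), or PTH replicate 4 (0.0637) was left out, these being edgeR adjusted p-values. The clock and the muscle and fat covariates each ended the Ndrg1 call, at log2 fold changes of 0.90 and 0.78 (adjusted p = 0.180 and 0.152), and kept that of Hilpda. Without PTH replicate 5 the Ndrg1 log2 fold change was 0.59 and was called (adjusted p = 0.0350). The direction was the same in all 21 settings for both genes. The library with the highest Ndrg1 level, PTH replicate 5, had the lowest cardiac marker sum (53.3 CPM). However, normoxia replicate 5, with the lowest cardiac sum of normoxia (272 CPM), had the lowest Ndrg1 level of all libraries (44.9 CPM). A link between heart content alone and Ndrg1 was not tested.

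Values of other members against normoxia with PTH were -0.70 for Pfkfb3 (SE 0.19, edgeR adjusted p = 0.101), 0.35 for Hk1 (SE 0.11, 0.139), 0.27 for Gapdh (SE 0.08, 0.125) and 0.25 for Pkm (SE 0.08, 0.140). Pfkfb3 was called without hypoxia replicate 5 (adjusted p = 0.0422) and by DESeq2 (0.00787), which also called Gapdh (0.0284) and Pkm (0.0379). With the clock score in the fit, Pfkfb3 was at -0.42 (edgeR adjusted p = 0.287), Hk1 at 0.21 (0.444) and Ldha at 0.37 (0.163). Bnip3 was at 0.30 (SE 0.10, 0.161), Ldha at 0.25 (SE 0.10, 0.237), Pgam1 at 0.17 (SE 0.08, 0.280) and Egln1 at 0.15 (SE 0.07, 0.282). In these genes except Pgam1, every PTH library was on the same side of every normoxia library.

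**Figure D4:**
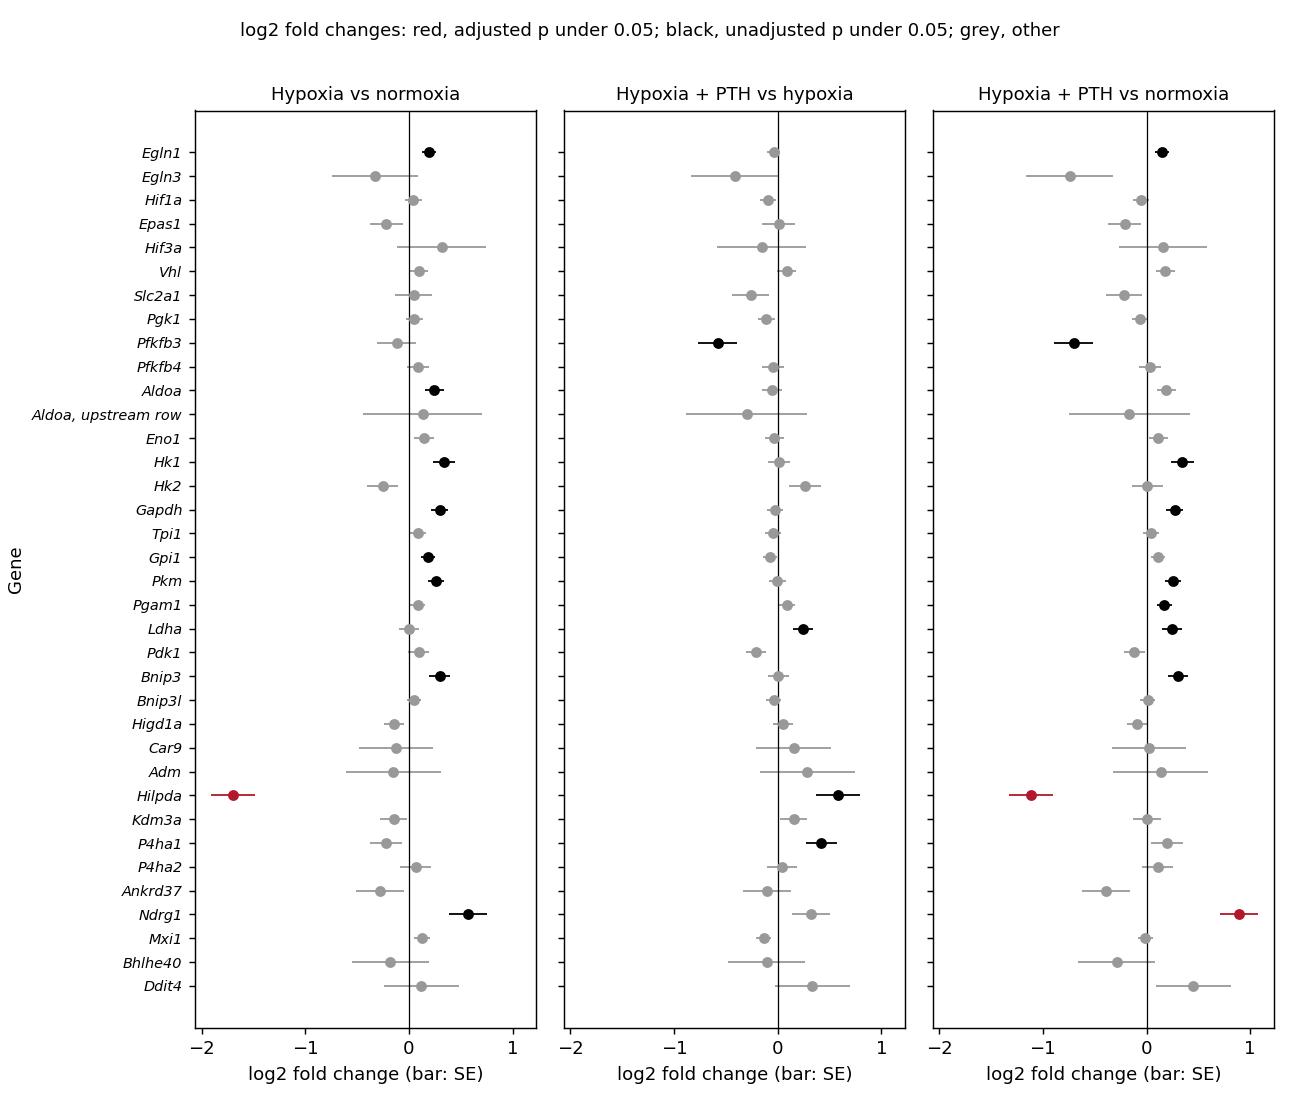
log2 fold changes (points) with their SE (bars) for the 36 rows in each comparison, with the first-named group over the second. Red marks an adjusted p under 0.05 in edgeR, black an unadjusted p under 0.05 and grey the rest. Hilpda is called lower against normoxia in hypoxia (-1.70) and in hypoxia with PTH (-1.11), Ndrg1 is called higher in hypoxia with PTH (0.89), and nothing is red between hypoxia with PTH and hypoxia.

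Adm, Bhlhe40 and Ddit4 differed more between the libraries within hypoxia and within normoxia than between these groups. Bhlhe40, a transcriptional repressor that also acts in the clock, was at 59.1, 61.3 and 71.9 CPM in hypoxia with PTH, 87.1, 79.8 and 40.5 CPM in hypoxia and 98.02, 96.05 and 40.5 CPM in normoxia. The low values in hypoxia and normoxia are those of replicate 5, the replicates low in Dbp, and the PTH libraries, all low in Dbp, lay between. Adm, which encodes the vasodilator adrenomedullin, was at 15.4, 7.18 and 15.5 CPM in hypoxia with PTH, 7.70, 6.29 and 17.2 CPM in hypoxia and 8.39, 8.99 and 17.3 CPM in normoxia. Here the replicates numbered 5 were the highest of hypoxia and normoxia. Ddit4 ran from 242 to 404 CPM in hypoxia with PTH, 183 to 404.5 CPM in hypoxia and 153 to 320.2 CPM in normoxia. The genes are on the member list as HIF targets, and the log2 fold changes of hypoxia against normoxia were -0.15 (SE 0.46) for Adm, -0.18 (SE 0.37) for Bhlhe40 and 0.12 (SE 0.36) for Ddit4, each smaller than its SE.

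Other genes of the pathway were read from the same test. Of 11 genes of the oxygen sensing machinery, among them Arnt, Hif1an and the VHL complex partners, 0 were called in any comparison. The smallest p in hypoxia against normoxia were those of Arnt2 (log2 fold change 1.02, edgeR adjusted p = 0.279), Crebbp (-0.14, 0.431) and Cited2 (0.19, 0.665). In hypoxia with PTH against hypoxia they were those of Arnt (-0.15, 0.535), Crebbp (0.12, 0.611) and Cul2 (0.18, 0.639), and against normoxia those of Arnt2 (0.98, 0.204), Arnt (-0.11, 0.445) and Hif1an (0.14, 0.565).

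Of 19 further glycolysis genes tested, 0 were called in any comparison. In hypoxia against normoxia 12 of the 19 were positive, with a median of 0.07. The smallest p in hypoxia against normoxia were those of Ldhb (-0.30, edgeR adjusted p = 0.414), Pdk3 (-0.24, 0.415) and Aldoc (-0.46, 0.483). Against hypoxia, the addition of PTH gave log2 fold changes of -1.16 for Slc2a3 (adjusted p = 0.472), -0.51 for Eno3 (0.482) and -1.06 for Hk3 (0.509). The median with PTH against hypoxia was -0.27 for this list, with 4 of 19 positive, against 47.7% of all genes tested. Slc2a3 and Hk3 are expressed in neutrophils, whose markers (8 genes) summed to 63.4 to 271 CPM in hypoxia with PTH, 91.1 to 1093 CPM in hypoxia and 93.0 to 579 CPM in normoxia. Eno3 is the muscle enolase, and its levels moved beside the muscle sums given above. Their part in these values was not tested. Hypoxia with PTH against normoxia gave -0.37 for Ldhb (adjusted p = 0.184), -0.27 for Bpgm (0.185) and 0.31 for Pfkp (0.241).

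Among 40 other oxygen-regulated genes, Ndufa4l2 rose and Stc1 fell in hypoxia against normoxia, Ndufa4l2 and Fam162a rose in hypoxia with PTH against normoxia, and none was called between the hypoxic groups. Ndufa4l2, a HIF target that lowers respiratory chain activity, had 38.6, 46.2 and 50.7 CPM in hypoxia with PTH, 48.2, 45.1 and 52.0 CPM in hypoxia and 26.5, 32.1 and 31.1 CPM in normoxia. Every hypoxic library was above every normoxia library, with log2 fold changes of 0.60 with PTH (SE 0.11, edgeR adjusted p = 0.0336) and 0.70 in hypoxia (SE 0.11, 0.0325). Ndufa4l2 is expressed in lung pericytes, and the 6 pericyte markers, itself included, summed to 762 to 911 CPM in hypoxia with PTH, 789 to 946 CPM in hypoxia and 572 to 650 CPM in normoxia, with 3 of 6 called against normoxia in each hypoxic group. The largest part of these sums was Postn, at 325 to 461.5 CPM with PTH, 356 to 470 CPM in hypoxia and 280 to 304 CPM in normoxia. All 6 markers were positive against normoxia in each hypoxic group. The part of pericyte content in the Ndufa4l2 values was not tested.

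Stc1, which encodes the secreted hormone stanniocalcin-1, had 4.04, 9.19 and 8.59 CPM in hypoxia with PTH, 4.53, 3.82 and 4.89 CPM in hypoxia and 16.4, 17.7 and 14.6 CPM in normoxia. Normoxia stood above all hypoxic libraries, with log2 fold changes of -1.16 with PTH (SE 0.26, edgeR adjusted p = 0.0621) and -1.88 in hypoxia (SE 0.27, 0.0163). Fam162a, a mitochondrial HIF target, had 35.8, 28.02 and 33.3 CPM in hypoxia with PTH, 29.8, 29.96 and 29.9 CPM in hypoxia and 24.2, 23.5 and 23.4 CPM in normoxia. Its libraries were again separate, with 0.45 with PTH (SE 0.09, adjusted p = 0.0441) and 0.34 in hypoxia (SE 0.09, 0.156). These calls depend on single libraries. In hypoxia against normoxia, Stc1 was lost without normoxia replicate 3 or any 1 hypoxia library (adjusted p = 0.0628 to 0.0827), and Ndufa4l2 without any 1 of these 6 libraries (0.0516 to 0.121). Against normoxia with PTH, Ndufa4l2 was lost without 6 libraries (0.0573 to 0.130: each normoxia library, hypoxia replicate 1, PTH replicates 4 and 5), and Fam162a without 8 (0.0589 to 0.163: all except PTH replicate 4). Between the hypoxic groups the smallest p were those of Trf (-0.31, adjusted p = 0.426), Loxl2 (0.43, 0.437) and Gbe1 (-0.40, 0.449).

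**Figure D5:**
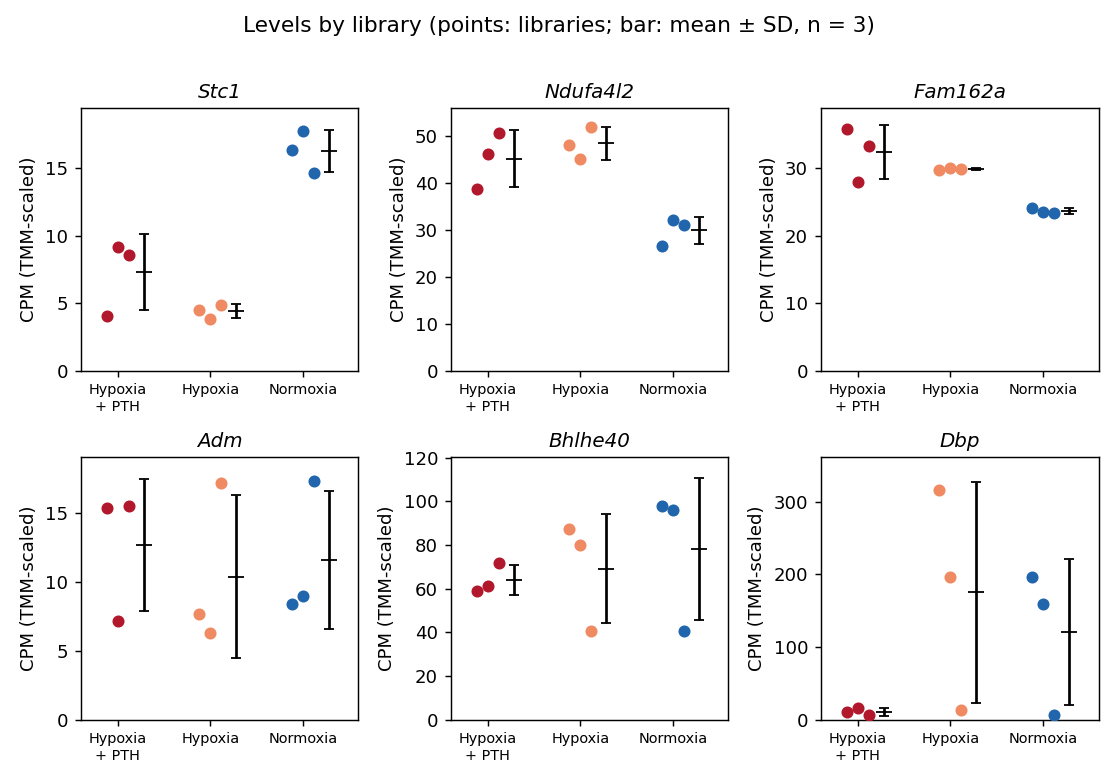
Levels in each library, in CPM scaled by TMM with mean ± SD of 3 libraries, for 3 oxygen-regulated genes outside the member list, for Adm and Bhlhe40, and for the clock output gene Dbp. Stc1 is higher and Ndufa4l2 and Fam162a are lower in normoxia than in both hypoxic groups, while Adm, Bhlhe40 and Dbp split the libraries of hypoxia and normoxia by replicate 5.

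Some cell markers stood apart in the hypoxic groups, and their part in the members' values was not tested. Lung identity markers (6 genes) summed to 42920 to 46020 CPM in hypoxia with PTH, 40480 to 47480 CPM in hypoxia and 48170 to 51390 CPM in normoxia. The sums of both hypoxic groups lay below normoxia. Of the 6 genes, 0 were positive in hypoxia against normoxia (median log2 fold change -0.21) and 5 with PTH against normoxia (median 0.15). The largest part of each sum was Scgb1a1, at 19970 to 20700 CPM with PTH, 21220 to 28290 CPM in hypoxia and 27710 to 30400 CPM in normoxia. Alveolar macrophage markers (6 genes) summed to 711 to 802 CPM in hypoxia with PTH, 619 to 642 CPM in hypoxia and 445 to 569 CPM in normoxia. Most of each sum was Chil3, at 540 to 612 CPM with PTH, 455 to 483 CPM in hypoxia and 319 to 414 CPM in normoxia. Of these 6 genes, 5 were positive against normoxia in each hypoxic group, with 0 called in hypoxia and 2 with PTH. Marco was at 6.81 to 10.4 CPM in hypoxia and 9.15 to 12.1 CPM in normoxia. Erythroid markers (7 of 8 in the table) summed to 2670 to 4075 CPM in hypoxia with PTH, 2979 to 3750 CPM in hypoxia and 4565 to 6066 CPM in normoxia. Proliferation markers (6 genes) summed to 37.8 to 41.8 CPM in hypoxia with PTH, 13.7 to 27.1 CPM in hypoxia and 11.4 to 22.9 CPM in normoxia. Endothelial markers (6 genes), from the cells known for high Epas1, summed to 3519 to 3950 CPM in hypoxia with PTH, 2760 to 3853 CPM in hypoxia and 2726 to 3713 CPM in normoxia and overlapped.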

How the data were processed

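Poly(A) RNA of whole lung was sequenced in 9 samples, prepared with a directional kit per the labels' protocols. Trimmomatic 0.39 and STAR 2.7.9a, with mm10 as the genome build, are listed in the submitters' processing notes. Which counter, strand setting and gene annotation were used is not given in the sources used here. For each sample the authors deposited 2 values per gene. The first are expected counts (estimated counts, not normalized, by the authors' unnamed counter, as deposited), of which 11.4% of those above 0 are whole. The second are log2 TPM, scaled by the authors for length and depth and deposited with a floor at 1 TPM, a unit read from their powers of 2, which sum to 997249 to 997533 per sample. Among whole counts between 1 and 20, 88.8% were even, so the counts may be of single mates of a pair, and they were not corrected for it.

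Expected counts were rounded and fitted with edgeR 4.0.16 in R 4.3.3 (TMM, filterByExpr with minimum count 10 and minimum total 15, robust quasi-likelihood, all 9 samples, 6 residual degrees of freedom). P-values were adjusted by Benjamini-Hochberg over 19640 genes, and genes under 0.05 were called. CPM are counts relative to TMM-scaled library size. The procedure was tested on simulated data. Alternatives included DESeq2 1.42.0, limma 3.58.1, other filters, TPM with pseudocounts of 0.1 and 5, a replicate block, clock and muscle and fat covariates, and leaving out each sample. Members and lists were chosen with earlier results of these data known. Values in every sample are given for members called or with an unadjusted p under 0.05 in a comparison, and for Hif1a, Epas1, Vhl, Slc2a1, Ldha, Pgk1, Ankrd37 and Car9. Values of Adm and Bhlhe40 were added after they were seen. Each further list names its called genes or, with none called, the 3 with the smallest p. Lists and covariates use markers of the clock (Dbp, Per3, Tef, Hlf, Nr1d1, Nr1d2; Arntl, Npas2, Clock), heart and fat. Ero1a was found under its older symbol Ero1l. Replicates of a group differed by more than sampling noise.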

Additional observations from a re-analysis of the deposited data

How the results depend on the processing

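Under the alternatives run, no named member or list changed direction where it was called, and 18 of 21 settings called Hilpda in hypoxia against normoxia. The labels do not say whether the replicate numbers pair the samples. Residuals of the 5 same-numbered pairs correlated between -0.0969 and 0.143, against -0.267 to 0.271 for other pairs. So few pairs cannot exclude a shared batch or order of collection, and the libraries numbered 5 of all groups were low in Dbp. With the replicate block, members called were 0 against normoxia in hypoxia (Hilpda adjusted p = 0.0612) and 0 with PTH, and called genes of the further lists were 0 and 0, while 8, 0 and 17 of all genes were called in hypoxia against normoxia, PTH against hypoxia and PTH against normoxia, beside 112, 0 and 341 without it. DESeq2 called 2 members in hypoxia against normoxia and 5 with PTH against normoxia, with 6 genes of the further lists, and 741, 143 and 1396 of all genes. With only the 6 samples compared, 2 members were called in hypoxia and 0 with PTH against normoxia, and 1 gene of the further lists with PTH. The deposited log2 TPM gave 0 members and 0 list genes in both comparisons with normoxia, with 37, 1 and 156 of all genes. For PTH against normoxia, members called were 1 with limma-voom, 0 with no filter and 1 with the clock or the muscle and fat covariate. List genes called were then 4 with no filter, 4 at an adjusted p under 0.1, 4 with log2(TPM + 5) and 0 with either covariate, and all genes called were 76 and 139 with the covariates. No filter gave 198 of all genes in hypoxia against normoxia, and adjusted p under 0.1 gave 324 and 833. Leaving out 1 library gave 0 to 2 members and 0 to 2 list genes called in each comparison with normoxia, and 50 to 158 and 81 to 359 of all genes. The members' median for hypoxia against normoxia was 0.12 on deposited log2 TPM, 0.12 on log2(TPM + 0.1) and 0.11 on log2(TPM + 5), and 0.0325 to 0.0925 with a library left out. For PTH against hypoxia it was -0.00345 and -0.00293 on log2(TPM + 0.1) and log2(TPM + 5), and -0.0437 to -0.000749 with a library left out. For PTH against normoxia it was 0.12, 0.14 and 0.11 on these 3 TPM scales, 0.0768 at minimum count 50, 0.0719 with the clock covariate, and -0.00600 to 0.0876 with a library left out. The median of all genes moved to at most 0.07 on the TPM scales. The cause of these moves was not tested. With 3 samples a group, a median SE of 0.11 for the members limits the detectable differences, and Car9 lies near the 1 TPM floor of the deposited values.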
